A study of Homo sapiens with 10 samples.

Results

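BTG2, PLK2, PLK3, CCNG1, GDF15 and FAM198B are 6 genes induced by p53 that brake growth or act through the secretory route. The 6 genes were found by symbol among the 55736 genes counted in the Nutlin-3a experiment and the 26256 genes counted in the untreated libraries. All 6 passed the filter on low counts, together with 13529 and 14376 genes in all. They were selected on their levels in Nutlin-3a against DMSO in these same libraries. Their values there are therefore a description without a test. The libraries with and without oncogenic HRas were treated as not used in that choice, but no source states this, and their results were known. The paper lists real-time PCR primers for FAM198B, and also for SERPINB5 and TP53INP1, which are used below. Its figure of the response to Nutlin-3a, by real-time PCR and RNA-seq, holds genes that were lower after HRas transformation. By its legend, these genes also had a p53 motif in accessible regions that were lost after transformation. A lower level of FAM198B after oncogenic HRas may therefore not be independent of the choice.

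RNA-seq counted poly(A) RNA in MCF10A cells, a nontransformed, immortalized mammary epithelial cell line. MCF10A cells received 10 µM Nutlin-3a or its solvent DMSO for 4 h, with 3 replicates each. MCF10A cells and G12V cells, which are MCF10A cells carrying a lentiviral HRas G12V oncogene, were read without treatment, with 2 replicates each. The G12V cells had been selected with hygromycin and carried a GFP vector as well, and nothing states that they came from 1 clone. No library combines G12V with Nutlin-3a. The paper speaks of at least 2 biological replicates per condition, but no source says that they came from separate cultures. A p-value therefore measures only the spread between these libraries.

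The libraries held 15453226 to 23683975 reads counted over genes, and the smallest count of any of the 6 genes was 37 reads. MDM2, the ubiquitin ligase that Nutlin-3a frees from p53 and itself a p53 target, had 122, 102 and 115 CPM in DMSO and 814, 509 and 646 CPM in Nutlin-3a. HRAS had 72.6 and 65.9 CPM in MCF10A and 631 and 515 CPM in G12V cells, which came to 3.05 on the log2 scale (edgeR's quasi-likelihood test, adjusted p = 0.00165). CPM are reads relative to the library size after TMM scaling, which sets aside the genes with the largest shifts. The parental libraries carried the basal epithelial keratin KRT5 at 2882 to 5093 CPM and the stromal proteoglycan DCN at 12.9 to 137 CPM. Of the immune markers, PTPRC and CD3E reached no more than 0.0455 and 0.117 CPM, but the monocyte marker CD14 had 2.09 to 8.23 CPM in the Nutlin-3a experiment and 18.0 to 39.6 CPM in the untreated libraries. In G12V cells 6 of 6 basal epithelial markers were lower, and CDH1, KRT14, KRT17 and TP63 were each below 2 CPM. Of 12 markers of other cell types, 3 passed the filter in the Nutlin-3a experiment and 7 in the untreated libraries. LUM, a stromal proteoglycan, was the only one called, at 1.20 CPM in both G12V libraries. In RNA from whole cultures, fewer cells of a type and less RNA per cell cannot be told apart.

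p53 is a transcription factor that MDM2 holds at a low level, and Nutlin-3a occupies the pocket of MDM2 that binds it. The stabilised protein binds response elements built of a pair of short repeats, each with an invariant C and G at its core. Its targets include proteins that stop division and proteins that leave the cell. BTG2 belongs to the antiproliferative BTG/TOB family and recruits the CCR4-NOT deadenylase to messenger RNA. PLK2 and PLK3 are polo-like kinases of stress responses, relatives of the mitotic kinase PLK1 and of PLK4, which starts centriole duplication. CCNG1 encodes cyclin G1, which brings protein phosphatase 2A to MDM2. GDF15 is a secreted member of the TGF-beta superfamily, cut by furin-like proteases, whose receptor GFRAL signals with RET. FAM198B, now named GASK1B, encodes a glycosylated protein of the Golgi apparatus.

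The genes differ widely in build. The reference gives BTG2 2 exons and 158 codons, GDF15 2 exons and 308 codons, and CCNG1 7 exons and 295 codons. PLK2 has 14 exons and 685 codons, PLK3 has 15 exons and 646 codons, and FAM198B has 5 exons and 519 codons. In hg19, as the files give them, BTG2 lies at chr1:203274619-203278697 and PLK3 at chr1:45265897-45271662, both on the plus strand. PLK2 lies at chr5:57749809-57756087 on the minus strand and CCNG1 at chr5:162864577-162872020 on the plus strand. FAM198B lies at chr4:159045626-159094202 on the minus strand. For GDF15 the untreated libraries' table gives chr19:18496968-18499986 on the plus strand. The Nutlin-3a table lists it from chr19:18485541 to chr19:18497018, which reaches only the first bases of that span, so the exons counted there are not known and its values are not compared between the tables.

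The DNA around the 6 gene starts was searched for the p53 response element because all 6 genes were named as p53 targets. The search took the element of 20 bases without a spacer, with the core C and G of both repeats required, on both strands, from 1000 bases before to 1000 bases after the start of the canonical transcript. It used the GRCh37 genome with GENCODE annotation. The best matches of CCNG1 and GDF15 are shown with their flanks, 5′ to 3′ on the plus strand, in capitals where a base fits the element.
CCNG1, chr5:162864912-162864971: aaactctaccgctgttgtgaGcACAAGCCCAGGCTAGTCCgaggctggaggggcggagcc
GDF15, chr19:18496098-18496157: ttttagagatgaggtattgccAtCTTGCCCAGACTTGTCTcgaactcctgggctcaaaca
The CCNG1 match fits the element in 19 of 20 bases and lies in an intron, 331 bases after the start. The GDF15 match fits it in 18 of 20 bases and lies 850 bases before the start. Matches with at most 2 mismatches were present in 1.38% of the windows of 19894 protein-coding genes. The best match of PLK3 had 4 mismatches and that of PLK2 had 5, levels reached by 25.3% and 55.8% of all windows. BTG2 and FAM198B had no match under 7 mismatches. A match describes these letters only, and its absence from a window says nothing about binding elsewhere.

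Nutlin-3a was given to MCF10A cells to stabilise p53. After 4 h BTG2, GDF15 and FAM198B were 5.46 to 7.23 times as high as in DMSO, PLK2 and PLK3 were 1.80 and 1.83 times as high, and CCNG1 was 1.39 times as high. For 6 of 6 genes every Nutlin-3a library lay above every DMSO library, a separation that 3.70% of all tested genes showed in this direction. A call required an adjusted p under 0.05 and a log2 fold change beyond 0.5 in edgeR's quasi-likelihood test. BTG2, GDF15 and FAM198B met it (3 of 6), where 0.155% of all tested genes were called higher and 0.170% were called in either direction. With the replicate number as a block 5 of 6 were called, all but CCNG1, where 0.702% of genes were called higher. These counts follow from the choice of the genes and are not evidence about them. Median log2 fold changes were 1.66 over the 6 genes and 0.0066 over all tested genes.

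BTG2 had 27.8, 33.7 and 36.2 CPM in DMSO and 224, 222 and 260 CPM in Nutlin-3a, a log2 fold change of 2.85. The lowest treated library was far above the highest control, and the change was the fourth largest of all tested genes. Taken within each replicate number, log2 ratios were 3.01, 2.72 and 2.84. Behind these values were 503 to 621 reads in DMSO and 3573 to 3955 reads in Nutlin-3a.

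GDF15 had 37.4, 35.4 and 26.4 CPM in DMSO and 210, 218 and 184 CPM in Nutlin-3a. Its log2 fold change was 2.63, with 2.49, 2.62 and 2.80 within the replicate numbers. Replicate 3 was the lowest in both groups and had the largest ratio.

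FAM198B, the gene with the lowest level, had 3.04, 3.44 and 4.43 CPM in DMSO and 19.4, 15.8 and 24.5 CPM in Nutlin-3a. Its log2 fold change was 2.45, with 2.67, 2.19 and 2.46 within the replicate numbers. It rested on 55, 56 and 76 reads in DMSO against 315, 254 and 372 reads in Nutlin-3a, and leaving out DMSO replicate 1 or 2 ended its call while its log2 fold change stayed at 2.33 and 2.41. A gene on the opposite strand, RP11-597D13.9, overlaps it and had 23, 34 and 52 reads in DMSO and 68, 49 and 91 reads in Nutlin-3a. That gene's log2 fold change was 1.05 (edgeR, adjusted p = 1.00, or 0.0328 with the replicate block). The library kit does not mark strand, so reads of the overlap cannot be told apart.

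**Figure D1:**
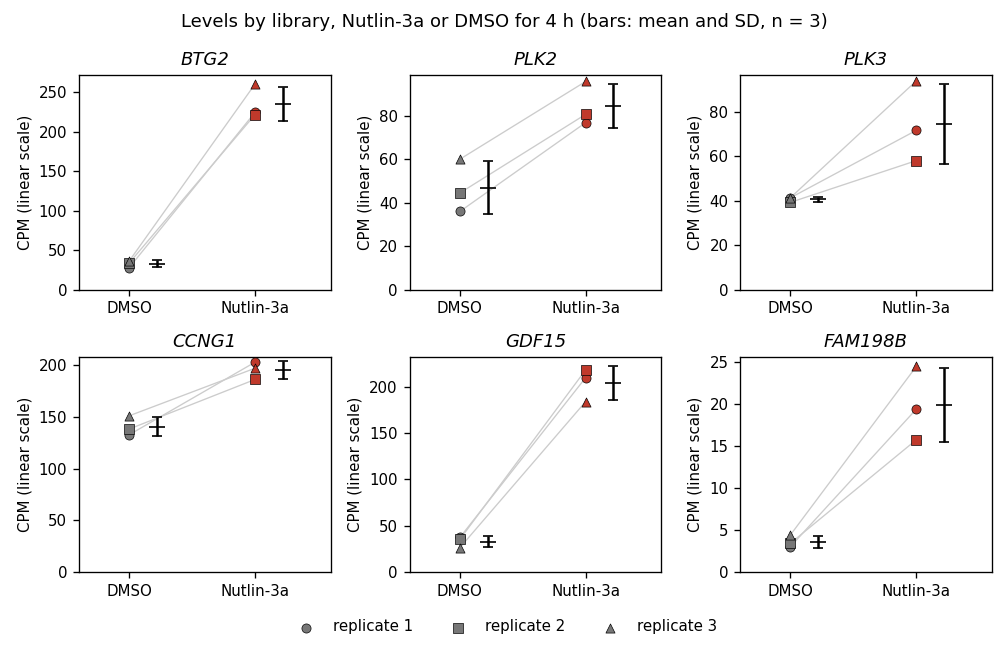
CPM on a linear scale from 0 for each gene in the 3 DMSO and 3 Nutlin-3a libraries, with symbols for the replicate number, grey lines joining libraries of one number, and bars at the mean with its SD (n = 3). Every treated library lies above every control library in all 6 panels, and CCNG1, with the smallest fold of the 6, has 151 CPM in its highest control and 186 CPM in its lowest treated library.

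The kinases moved less. PLK3 had 41.3, 39.3 and 41.4 CPM in DMSO and 71.7, 58.0 and 94.0 CPM in Nutlin-3a, a log2 fold change of 0.87. Its controls were almost level, and nearly all of its spread was among the treated libraries, with log2 ratios of 0.79, 0.56 and 1.18. PLK2 had 36.0, 44.5 and 60.0 CPM in DMSO and 76.9, 80.7 and 95.9 CPM in Nutlin-3a, a log2 fold change of 0.85. Its SD was 12.2 CPM in DMSO and 10.0 CPM in Nutlin-3a, and replicate 3 was the highest in both groups. The log2 ratios of PLK2 ran the other way across numbers from its levels, at 1.10, 0.86 and 0.68, and without DMSO replicate 3 its log2 fold change was 1.07.

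CCNG1 was already high in DMSO. It had 133, 138 and 151 CPM there and 203, 186 and 197 CPM in Nutlin-3a, a log2 fold change of 0.47 that stood under the 0.5 required for a call. Its log2 ratios were 0.61, 0.43 and 0.38. With 2254 to 3295 reads per library, it was the most deeply counted of the 6 genes in DMSO.

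Per kilobase of the canonical transcript, the order of levels differed between the groups. In DMSO, CCNG1 stood first with 57.6 ± 3.84 CPM per kilobase (SD, n = 3) and GDF15 second with 27.5 ± 4.90. PLK3 with 17.4 ± 0.512 and PLK2 with 16.8 ± 4.38 did not differ beyond their spread. BTG2 followed with 11.9 ± 1.58, but its highest library, at 13.3, lay above the lowest of PLK2, at 12.9. FAM198B was last with 0.746 ± 0.147. In Nutlin-3a, GDF15 stood first with 170 ± 14.9 CPM per kilobase. BTG2 with 86.3 ± 7.90 and CCNG1 with 80.0 ± 3.47 overlapped, as did PLK3 with 31.9 ± 7.75 and PLK2 with 30.3 ± 3.60, and FAM198B was last with 4.08 ± 0.899. The levels of BTG2, CCNG1 and GDF15 assume the canonical transcript. It is not the one listed for them in this experiment and may not be the one counted.

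Among relatives of the same families, none of the 7 tested genes was called after Nutlin-3a, and their median log2 fold change was 0.02. TOB1, a BTG/TOB protein, had a log2 fold change of 0.54 with separate groups, at 30.2 to 40.6 CPM in DMSO and 43.5 to 60.5 CPM in Nutlin-3a. It was called only with the replicate block (edgeR, adjusted p = 0.0045, against 0.757 without it). PLK1 had 155, 176 and 175 CPM in DMSO and 100, 115 and 93.6 CPM in Nutlin-3a, a log2 fold change of -0.71 (edgeR, adjusted p = 0.0893, or 5.30e-04 with the block). PLK4 had a log2 fold change of -0.39, also with separate groups, whereas PLK2 and PLK3 were higher. BTG1, BTG3 and TOB2 overlapped between the groups, as did CCNG2, the other cyclin G, with a log2 fold change of 0.02. BTG4, PLK5 and FAM198A were too low to test.

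**Figure D2:**
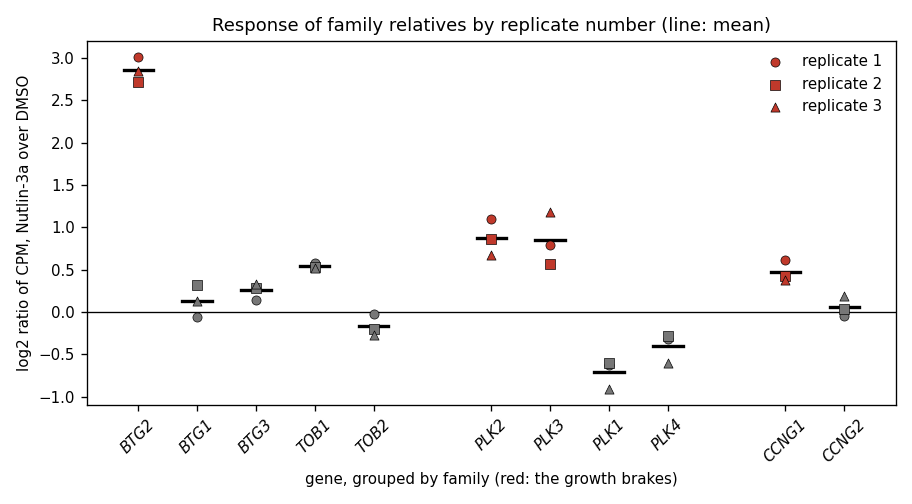
Log2 ratio of CPM in Nutlin-3a over DMSO within each of the 3 replicate numbers, for BTG/TOB, polo-like kinase and cyclin G genes, with a line at the mean and the genes described here in red. BTG2 stands near 2.85 while its relatives stay under 1, and PLK2 and PLK3 lie above 0 where PLK1 and PLK4 lie below it.

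Other p53-induced genes of arrest and stress give a scale for these changes. Of 10 tested, 4 were called higher and 10 had a positive log2 fold change, with a median of 0.89. CDKN1A, the inhibitor of cyclin-dependent kinases, rose by a log2 fold change of 2.16, from 624 to 673 CPM in DMSO to 2688 to 3349 CPM in Nutlin-3a (edgeR, adjusted p = 5.16e-04). TP53INP1 rose by 1.77 and SESN1, a sestrin that restrains mTORC1, by 1.63. PPM1D, a phosphatase that dampens p53, rose by 0.92, but this call was lost whenever any 1 library was left out. With the replicate block 7 of the 10 were called higher, GADD45A, SESN2 and ZMAT3 being added. The list holds well-known p53 targets and was written with earlier results of these data known.

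Among other secreted or extracellular factors, none of 7 tested genes was called, and the median was 0.27. CSF1 and LIF were called higher and THBS1 lower with the replicate block. FURIN, which cuts precursors of the GDF15 kind, had a log2 fold change of -0.02, while GFRAL and RET, its receptor pair, reached at most 0.197 CPM in any of these libraries. The 7 subunits and partners through which BTG2 acts, CNOT7 and CNOT8 among them, had log2 fold changes between -0.10 and 0.23, and none was called. None of 7 ATF4 response genes and none of 14 immediate-early genes was called, although ATF3 was called higher with the block. ATF4 and immediate-early signalling can also raise BTG2 and GDF15, and their part in these changes was not tested.

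Proliferation genes leaned down. None of 13 was called, but 13 had a negative log2 fold change, with a median of -0.33, and 9 had separate groups. Of all tested genes 51.8% had a positive log2 fold change. The share of all genes with groups separate in the lower direction was not counted. CCNA2, CCNE1 and CCNE2, the cyclins of entry into and passage through S phase, were called lower with the block. Among all 13529 tested genes the block called 165, of which 95 were higher. CCNE1, for example, had 28.4, 29.2 and 29.8 CPM in DMSO and 18.0, 20.9 and 19.9 CPM in Nutlin-3a.

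**Figure D3:**
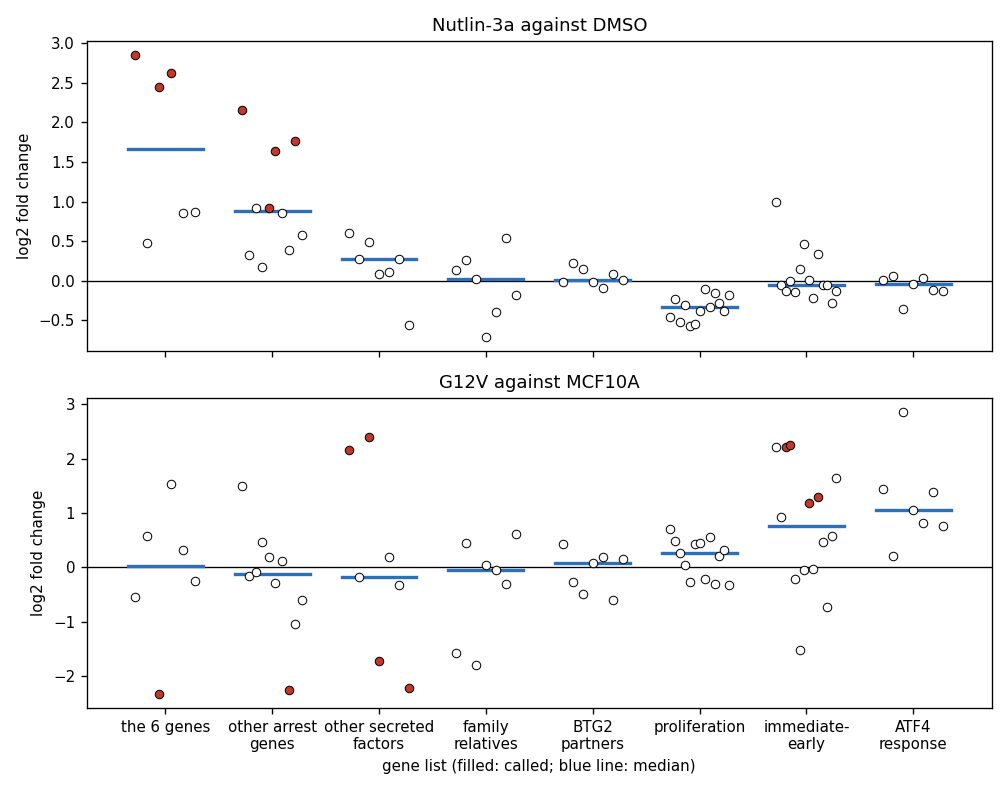
Log2 fold change of each tested gene by list, in Nutlin-3a against DMSO (top) and G12V against MCF10A (bottom), with filled points for called genes and a line at the list's median. The medians of the 6 genes are 1.66 at the top and 0.03 at the bottom, and the points of the proliferation list all lie below 0 at the top.

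The profile of the 6 genes over the 6 libraries of the Nutlin-3a experiment was compared with that of 9261 genes with a mean of at least 10 CPM over these libraries, a limit that a gene could pass through the treated group alone. Pearson's r with the mean of their standardized log2 CPM was highest for a gene listed under a clone name (0.997), NTPCR (0.992), CDKN1A (0.992), PPM1D (0.992) and SGK223 (0.986). That gene had a mean of 6.04 CPM in DMSO and 15.9 CPM in Nutlin-3a, and SGK223 had 18.1 and 33.0 CPM. NTPCR, a nucleoside-triphosphatase, shared the shape at a fold of only 1.24 and was not called. In all, 27 genes had an r above 0.95. These points share libraries and treatment, and r says how alike the shapes are, not how large the changes.

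G12V cells were then compared with MCF10A cells, to ask how the same genes stood after oncogenic HRas. The 6 genes did not move as a group. FAM198B was lower, and the other 5 were not called. Their log2 fold changes lay between -2.33 and 1.53, and the median was 0.03. The 1 call in 6 stands beside 11.0% of all tested genes called, 5.01% higher and 5.95% lower. Only FAM198B had groups that did not overlap, 1 of 6 where 54.8% of all tested genes had such groups in either direction.

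FAM198B had 9.77 and 11.1 CPM in MCF10A and 1.58 and 2.59 CPM in G12V cells. Both G12V libraries lay far below both parental ones, 5.01-fold lower on average, for a log2 fold change of -2.33 ± 0.37 (SE; edgeR's quasi-likelihood test, adjusted p = 0.0143). Behind these values were 215 and 253 reads in the parental and 37 and 58 reads in the G12V libraries. FAM198B was thus lower in G12V cells and higher after Nutlin-3a in their parental line. The paper already reports a response to Nutlin-3a among genes that were lower after HRas transformation. Without MCF10A replicate 1 its log2 fold change was -2.40 and the call was lost (adjusted p = 0.126), as were all calls of this test. There edgeR gave 0 called genes with 2830 at an unadjusted p under 0.05, and DESeq2 called 1488 genes and gave FAM198B an adjusted p of 0.00447.

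GDF15 differed more between replicates than between cell types. It had 10.9 and 28.7 CPM in MCF10A and 5.47 and 109 CPM in G12V cells, so that the lowest and the highest library were both G12V. The log2 fold change was 1.53 ± 1.19 (SE; edgeR, adjusted p = 0.502). Within the replicate numbers GDF15 was 0.504 times as high in G12V cells for number 1 and 3.79 times as high for number 2. Each G12V library alone pointed in its own direction. Without G12V replicate 2 the log2 fold change was -1.85, and without G12V replicate 1 it was 2.46. Each of these fits holds a single G12V library, assumed to vary like MCF10A, so no call is read from them.

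BTG2 also split by replicate. It had 22.9 and 93.5 CPM in MCF10A and 21.5 and 58.2 CPM in G12V cells, low in both libraries numbered 1 and high in both numbered 2. The log2 fold change of -0.55 ± 0.72 (SE) was within this spread (edgeR, adjusted p = 0.711), and without MCF10A replicate 2 it was 0.80. CCNG1 had 207 and 312 CPM in MCF10A and 298 and 479 CPM in G12V cells, higher in G12V within each number. Its log2 fold change of 0.58 ± 0.32 (SE) did not pass the test (edgeR, adjusted p = 0.331).

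Neither kinase passed the test. PLK2 had 89.9 and 48.1 CPM in MCF10A and 72.7 and 99.0 CPM in G12V cells. The difference on the log2 scale was 0.32 ± 0.33 (SE; edgeR, adjusted p = 0.634). Its sign turned to -0.068 without MCF10A replicate 2. PLK3 had 32.1 and 28.4 CPM in MCF10A and 21.9 and 28.8 CPM in G12V cells. The difference on the log2 scale was -0.25 ± 0.23 (SE; edgeR, adjusted p = 0.579). Both genes overlapped between the groups, and both differences were under the 0.5 that a call required.

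**Figure D4:**
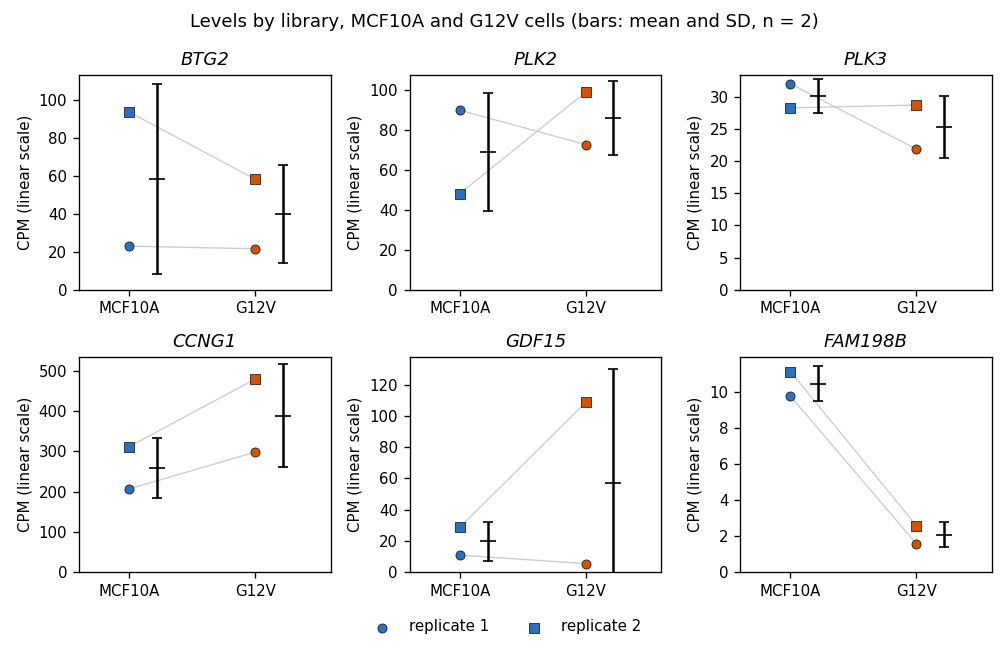
CPM on a linear scale from 0 for each gene in the 2 MCF10A and 2 G12V libraries, with symbols for the replicate number, grey lines joining libraries of one number, and bars at the mean with its SD (n = 2). FAM198B is the one gene whose cell types stand apart, and GDF15 spans 5.47 to 109 CPM within G12V cells, where the lower end of its SD bar would fall below 0 and is not drawn.

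The replicates numbered 2 stood apart from those numbered 1 in ways that touch these genes. In MCF10A, BTG2 was 4.07, GDF15 2.62 and CCNG1 1.51 times as high in replicate 2, while PLK2 was 0.536 and PLK3 0.883 times as high. In G12V cells all 6 were higher in replicate 2, GDF15 by 19.5 times and BTG2 by 2.70 times. Over all 14376 tested genes, 7893 were higher in replicate 2 in G12V cells and 7096 in MCF10A. A change of more than 2 times between the replicates was seen in 6.27% of tested genes in MCF10A and in 8.44% in G12V cells. Proliferation genes were lower in replicate 2 for 13 of 13 genes in both cell types, with median log2 ratios of -0.73 in MCF10A and -0.86 in G12V cells. In G12V cells 7 of 7 ATF4 response genes and 12 of 14 immediate-early genes were higher in replicate 2, with medians of 0.88 and 1.19, against 3 of 7 and 9 of 14 in MCF10A. CDKN1A was 1.33 and 2.69 times as high in replicate 2 of MCF10A and G12V cells. The part of growth state or stress in the levels of BTG2 and GDF15 was not tested.

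**Figure D5:**
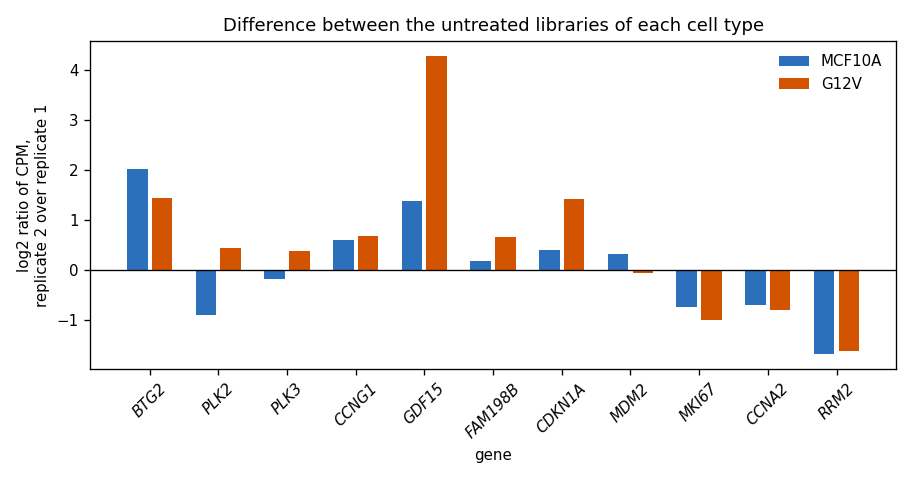
Log2 ratio of CPM in replicate 2 over replicate 1, in untreated MCF10A (blue) and G12V cells (orange), for the 6 genes, CDKN1A, MDM2 and the proliferation genes MKI67, CCNA2 and RRM2. GDF15 in G12V cells has the tallest bar, a 19.5-fold difference, and the 3 proliferation genes point down in both cell types.

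In G12V cells the surrounding genes did not share 1 direction either. Of 10 tested arrest and stress genes only SFN, the epithelial 14-3-3 sigma, was called, with 775 and 630 CPM in MCF10A and 154 and 142 CPM in G12V cells (edgeR, adjusted p = 0.00418). The median of that list was -0.12, and CDKN1A had a log2 fold change of 1.50 with separate groups (edgeR, adjusted p = 0.106). MDM2 had a log2 fold change of -0.04, with 245 and 307 CPM in MCF10A and 274 and 263 CPM in G12V cells. None of the 7 tested relatives was called. BTG1 and CCNG2 had log2 fold changes of -1.58 and -1.79, both with separate groups (edgeR, adjusted p = 0.133 and 0.0696).

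The other secreted factors split in G12V cells. CSF1, a macrophage growth factor, rose from 22.2 and 45.7 CPM to 97.5 and 207 CPM (edgeR, adjusted p = 0.0406), and LIF, a cytokine of the interleukin-6 family, rose from 14.1 and 7.31 CPM to 60.5 and 51.7 CPM (edgeR, adjusted p = 0.0114). SERPINB5, or maspin, and the matrix protein THBS1 fell, by log2 fold changes of -1.71 and -2.21 (edgeR, adjusted p = 0.00823 and 0.0247). The other 3 of the 7 were not called, and the median was -0.17.

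Immediate-early and ERK output genes had 4 of 14 called higher, namely DUSP4, DUSP5, FOSL1 and IER3. The list's median log2 fold change was 0.75, with 9 genes above 0 and 5 below. With the replicate block 8 were called higher and 2 lower. The lower ones were EGR1 and JUNB, with log2 fold changes of -1.52 and -0.72 without the block. DUSP5, a nuclear ERK phosphatase, went from 21.5 and 23.5 CPM to 62.0 and 151 CPM. FOSL1 passed narrowly (edgeR, adjusted p = 0.0448) and did not pass with upper-quartile factors, with library totals alone or without the filter. ATF4 response genes had a median log2 fold change of 1.05, with 7 of 7 above 0 and none called. Of the 13 proliferation genes none was called, and 9 had a positive log2 fold change. All of the calls in G12V cells that were made without the block were lost when MCF10A replicate 1 was left out.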

How the data were processed

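The authors selected poly(A) RNA, prepared libraries with a kit that does not mark strand, aligned reads to hg19 with TopHat2, counted them with HTSeq and deposited raw counts per gene. The annotations, the strand setting and the handling of overlapping genes are not given in the sources used here. The tables of untreated and of Nutlin-3a libraries use different annotations, were normalized separately and were never compared in level.

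From the counts, each comparison was fitted with edgeR 4.0.16 and limma 3.58.1 in R 4.3.3, with filterByExpr, TMM, the quasi-likelihood F-test and Benjamini-Hochberg adjustment over all tested genes. The prior count was 0.125, and each SE was taken from the fold change and its F. The fits were tested on simulated data. DESeq2 1.42.0 served as an alternative, and the other steps ran in Python 3.11.15 (numpy 2.4.6, pandas 2.3.3) with figures by matplotlib 3.10.9. The text names the 6 genes, the genes of each list that were called or that a sentence on it is about, HRAS and MDM2 as checks, and the 5 genes most alike in profile, 1 of them without its clone name. RP11-597D13.9 was added after its values were seen. The members and lists were chosen with earlier results of these data known.

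Replicate numbers paired the Nutlin-3a libraries: same-numbered libraries deviated together from their group means (r = 0.61, 0.57 and 0.61). The other pairs had r from -0.46 to -0.19. Deviations cancel within a group, so positive same-numbered values force the other pairs to be negative on balance, and these add nothing. Depth is given as reads per gene, which limits precision for FAM198B most. Other settings and left-out libraries were tried as alternatives.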

Additional observations from a re-analysis of the deposited data

How the results depend on the processing

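In Nutlin-3a against DMSO, 23 genes were called, against 87 with DESeq2, 84 with edgeR's exact test, 99 without a filter, 165 with the replicate block and 332 at an unadjusted p under 0.05 and a fold above 1.3. Of the 6 genes 3 were called, against 5 with DESeq2, the exact test, no filter or the block, and 6 at the unadjusted threshold. Leaving out 1 library gave 7 to 11 called genes and 2 to 3 of the 6. In G12V against MCF10A, 1575 genes were called, against 2536 with the exact test, 4158 with the replicate block and 3676 at the unadjusted threshold. Leaving out 1 library gave 0 to 2129 genes and 0 to 2 of the 6. DESeq2 without MCF10A replicate 1, an alternative chosen after seeing the data, gave 1488.

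The block made 2 of the 6 called in G12V cells, adding CCNG1 (edgeR, adjusted p = 0.0065). It called 4158 of all 14376 tested genes, so this count says little about the 6. The G12V and MCF10A libraries are linked only by a number in their names, and deviations of the same number correlated at 0.41. With 2 libraries per group the crossed value, -0.41, is fixed as its negative and adds nothing. With 1 library left out, log2 fold changes in G12V cells ran from -1.44 to 0.80 for BTG2, from -0.068 to 0.85 for PLK2, from -1.85 to 2.46 for GDF15 and from -0.17 to 0.13 for MDM2. The lone library left in a group is assumed to vary like the other group. With another scaling, filter or model, the log2 fold change of FAM198B stayed between -2.35 and -2.28. The cause of these shifts was not tested. The 2 libraries per cell type limit what can be said of GDF15 and BTG2.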

Other observations

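The summed level of the 6 genes was 297 CPM in DMSO and 814 CPM in Nutlin-3a, both as means over 3 libraries. In the Nutlin-3a experiment the ATF4 response genes ASNS and PSAT1 differed between replicates far more than between treatments. ASNS had 321, 106 and 47.1 CPM in DMSO and 330, 105 and 42.0 CPM in Nutlin-3a, and PSAT1 had 540, 187 and 113 CPM in DMSO and 493, 179 and 102 CPM in Nutlin-3a. The order of the replicate numbers was the same in both groups for ASNS and PSAT1. GDF15 was lowest in number 3 in both groups, at 26.4 CPM in DMSO and 184 CPM in Nutlin-3a. In DMSO GDF15 had 37.4, 35.4 and 26.4 CPM, the same order of numbers as ASNS and PSAT1. In Nutlin-3a its highest library was number 2, at 218 CPM, unlike ASNS and PSAT1, and a tie between these genes was not tested. BTG2 was highest in number 3 in both groups. LIF, another secreted factor, had 24.6, 106 and 34.0 CPM in DMSO and 48.2, 117 and 64.9 CPM in Nutlin-3a.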
